A study of Mus musculus with 17 samples.

Results

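Collagen genes were followed through 17 RNA-seq libraries of sorted mouse mammary cells. They were taken by symbol, as every gene named Col, a number, the letter a and a number, which gave 43 of the 35147 gene symbols listed. Of these, 33 were listed in the table of the knockout experiments, 28 in the table of the CXCR4 sort, 35 in the culture table and all 43 in the table of basal cells, and 25 were common to all 4 tables. The cells were macrophages, freshly sorted or cultured, and basal epithelial cells, all from virgin mice, whose strain and age are not given in the sources used here.

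The knockout experiments compared F4/80 and CD11b sorted macrophages in 4 groups of 2 libraries. LysM-Cre control macrophages carried a Cre driven by the lysozyme 2 gene, active in myeloid cells, and LysM-Cre Cxcr4 knockout macrophages carried the same Cre with floxed Cxcr4 (genotype Cxcr4fl/fl). The other macrophages came from mice whose Cre was driven by keratin 8, active in luminal epithelium. These were the K8-Cre control and, with floxed Cxcl12 as well (genotype Cxcl12fl/fl), the K8-Cre Cxcl12 knockout, so there the deletion was in neighbouring epithelial cells and not in the macrophages sequenced. In the sort, wild-type macrophages were divided by surface CXCR4 into 2 CXCR4-positive libraries and 1 CXCR4-negative library. In culture, wild-type macrophages were kept in RPMI with serum and left untreated, given recombinant CXCL12, given the AKT inhibitor GSK690693, or given both, with 1 library each. The basal population, called P4 and sorted as Lin-CD24+CD29hi, is enriched for mammary stem cells and was sequenced once from a K8-Cre control and once from a K8-Cre Cxcl12 knockout. The labels do not say whether repeats came from separate mice, so p-values measure the spread between these libraries.

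Collagens are triple-helical proteins of the extracellular matrix. The fibrillar types, led by types I, III and V, form the fibres of connective tissue and are made mainly by fibroblasts. Type IV forms the sheet-like network of basement membranes under epithelium and around vessels, type VI forms beaded filaments, types XV and XVIII are multiplexins of basement membrane zones, and type VII anchors the epithelial basement membrane to the stroma. Type XVII is a transmembrane protein of hemidesmosomes, the junctions that fix basal epithelial cells to that membrane. Macrophages are known mostly for taking up and degrading collagen, through receptors such as Mrc1.

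Macrophage libraries held 8.60 to 37.2 M reads, worked out from the step size of their deposited values, and 3 reads were worth 0.0806 to 0.349 CPM, the read count scaled to the library total. The depth of the P4 libraries, given in FPKM, is unknown. The K8-Cre control repeat 1 had the fewest reads and listed 37.1% of its genes at 0, against 8.46% in the K8-Cre control repeat 2. Cxcr4 stood at 818.5 and 318.4 CPM in the LysM-Cre controls and at 232.2 and 140.4 CPM in the Cxcr4 knockouts. In the sort, Cxcr4 RNA was 632.2 and 875.02 CPM in the CXCR4-positive libraries and 772 CPM in the library labelled CXCR4-negative, so its RNA did not follow the surface label. Deletion of Cxcl12 in luminal cells cannot be checked in these cells. The 8 macrophage markers (Adgre1, Itgam, Csf1r, Cd68, Ptprc, Fcgr1, Mertk, C1qa) summed to 2618 to 4215 CPM in the knockout experiments, 3581 to 5110 in the sort and 1164 to 1260 in culture, and to 8.61 and 14.4 FPKM over the 7 listed in P4 cells.

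The sequences in front of 3 sets of collagen genes are shown because their genes carry the main patterns below: the type IV pair that was high in culture and in P4 cells, and the fibrillar genes that were high in sorted macrophages. Col4a1 and Col4a2, the chains of the ubiquitous type IV network, lie head to head on mouse chromosome 8 (GRCm38, GENCODE M21), with starts at 11312826 on the minus strand and 11312805 on the plus strand. The first line gives the 30 bases around the 2 starts (chr8:11312801-11312830, plus strand), with the 22 bases from one start to the other, both included, in capitals. The next 2 lines give the 250 bases before the start of Col1a2 (chr6:4505368-4505617, plus strand), with the motif CCAAT in capitals, and of Col3a1 (chr1:45311288-45311537, plus strand), with TATAAA in capitals. All are from RefSeq promoter windows on GRCm38.p6, 5′ to 3′.
Col4a1 and Col4a2 starts: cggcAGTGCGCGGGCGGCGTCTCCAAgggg
Col1a2: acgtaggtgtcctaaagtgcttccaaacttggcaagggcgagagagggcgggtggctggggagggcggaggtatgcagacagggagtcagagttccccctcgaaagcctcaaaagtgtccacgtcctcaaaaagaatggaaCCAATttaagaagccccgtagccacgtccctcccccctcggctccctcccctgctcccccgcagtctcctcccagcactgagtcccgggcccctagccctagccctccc
Col3a1: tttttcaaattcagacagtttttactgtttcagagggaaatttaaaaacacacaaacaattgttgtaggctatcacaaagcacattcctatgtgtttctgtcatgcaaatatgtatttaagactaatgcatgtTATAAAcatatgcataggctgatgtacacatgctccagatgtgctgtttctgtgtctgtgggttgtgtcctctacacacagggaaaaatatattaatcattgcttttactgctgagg
A window (250 before the start and 50 after) was found for 35 of the 43 collagens, and Col1a1 is named without one. On both strands, CCAAT was present for 13 of the 35 collagens (37.1%) and in 37.4% of all 32851 windows. TATAAA was present for 5 of 35 (14.3%) against 13.6% of all windows, and GGGCGG for 22 of 35 (62.9%) against 35.7%. A collagen counted if any of its windows held the motif, while the background counts single windows, so the shares are not strictly alike. A match describes letters in the window and shows no binding. The other type IV pairs are also arranged head to head: the starts of Col4a3 and Col4a4 lie 72 bases apart on chromosome 1, and those of Col4a5 and Col4a6 1309 bases apart on chromosome X.

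Of the 33 collagens detected in P4 cells, 31 were also detected in some macrophage table. With detection set at 1 CPM, 30 of 33 listed collagens were detected in the knockout experiments (in at least 2 of 8 libraries), 28 of 28 in the sort and 34 of 35 in culture (in at least 1 library). In P4 cells 33 of 43 reached 1 FPKM in at least 1 library. Of all listed genes, the same rules passed 17275 of 19782 in the knockout experiments and 17130 of 17130 in the sort. They passed 17995 of 18818 in culture and 13146 of 26584 in P4 cells. Every gene listed in the sort passed, so 28 of 28 is not a result about collagens. Counting any macrophage table, 37 collagens were detected in macrophages, 31 of them also in P4 cells. The same overlap over all genes was not worked out, so it is not read as a result about collagens. Passing could rest on 1 library of a table, as for Col20a1 (1.81 CPM in CXCR4-positive repeat 1 and 2.84 CPM in untreated culture). The 6 found in macrophages and not in P4 cells were Col4a3, Col4a4, Col6a5, Col11a2, Col13a1 and Col25a1, all of them low (Col4a3 reached 17.6 CPM in 1 cultured library and was not listed in sorted macrophages). FPKM is per kilobase and CPM is not, so for long transcripts the cutoff is stricter in P4 cells. In CPM per kilobase, Col4a4 and Col6a5 did not pass 0.746 and 0.265 in macrophages, below 0.934 and 0.587 FPKM in the P4 knockout. On that scale Col4a3, Col11a2, Col13a1 and Col25a1 were higher in a macrophage library. The 2 found in P4 cells and not in macrophages were Col9a1 and Col9a2, chains of the fibril-associated type IX. Col9a2 was not listed in any macrophage table, so it has no macrophage value. Col9a1 reached 3.53 CPM in 1 macrophage library, the LysM-Cre control repeat 2, and in P4 cells the pair stood at 3.29 and 3.49 FPKM and at 35.3 and 13.8 FPKM in the control and the knockout. The 4 others, Col2a1, Col19a1, Col22a1 and Col24a1, reached the detection level nowhere.

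Detection in every library of a table is a stricter count. At least 1 CPM was reached in all 8 knockout-experiment libraries by 13 collagens: Col1a1, Col1a2, Col3a1, Col4a1, Col4a2, Col5a1, Col5a2, Col6a1, Col6a2, Col6a3, Col14a1, Col15a1 and Col27a1. The same count was 20 in the sort, 15 in culture and 28 in the 2 P4 libraries. The rule is harder to meet with 8 libraries than with 2, and the share of all genes that met it was not worked out. These counts are therefore not compared between tables and are not a result about collagens. The median level of the 25 common collagens ran from 2.12 to 17.5 CPM over the knockout-experiment libraries, from 6.98 to 12.7 CPM in the sort and from 10.5 to 27.8 CPM in culture, and was 32.3 and 41.2 FPKM in P4 cells. All collagens together made up 344 to 1009 CPM in the knockout experiments, 229.8 CPM in the CXCR4-negative and 425.7 and 702 CPM in the CXCR4-positive libraries, and 1119 to 1798 CPM in culture. CPM and FPKM are different scales, and the 4 tables were normalized separately, so levels in different tables are set side by side and were not tested against each other.

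**Figure D1:**
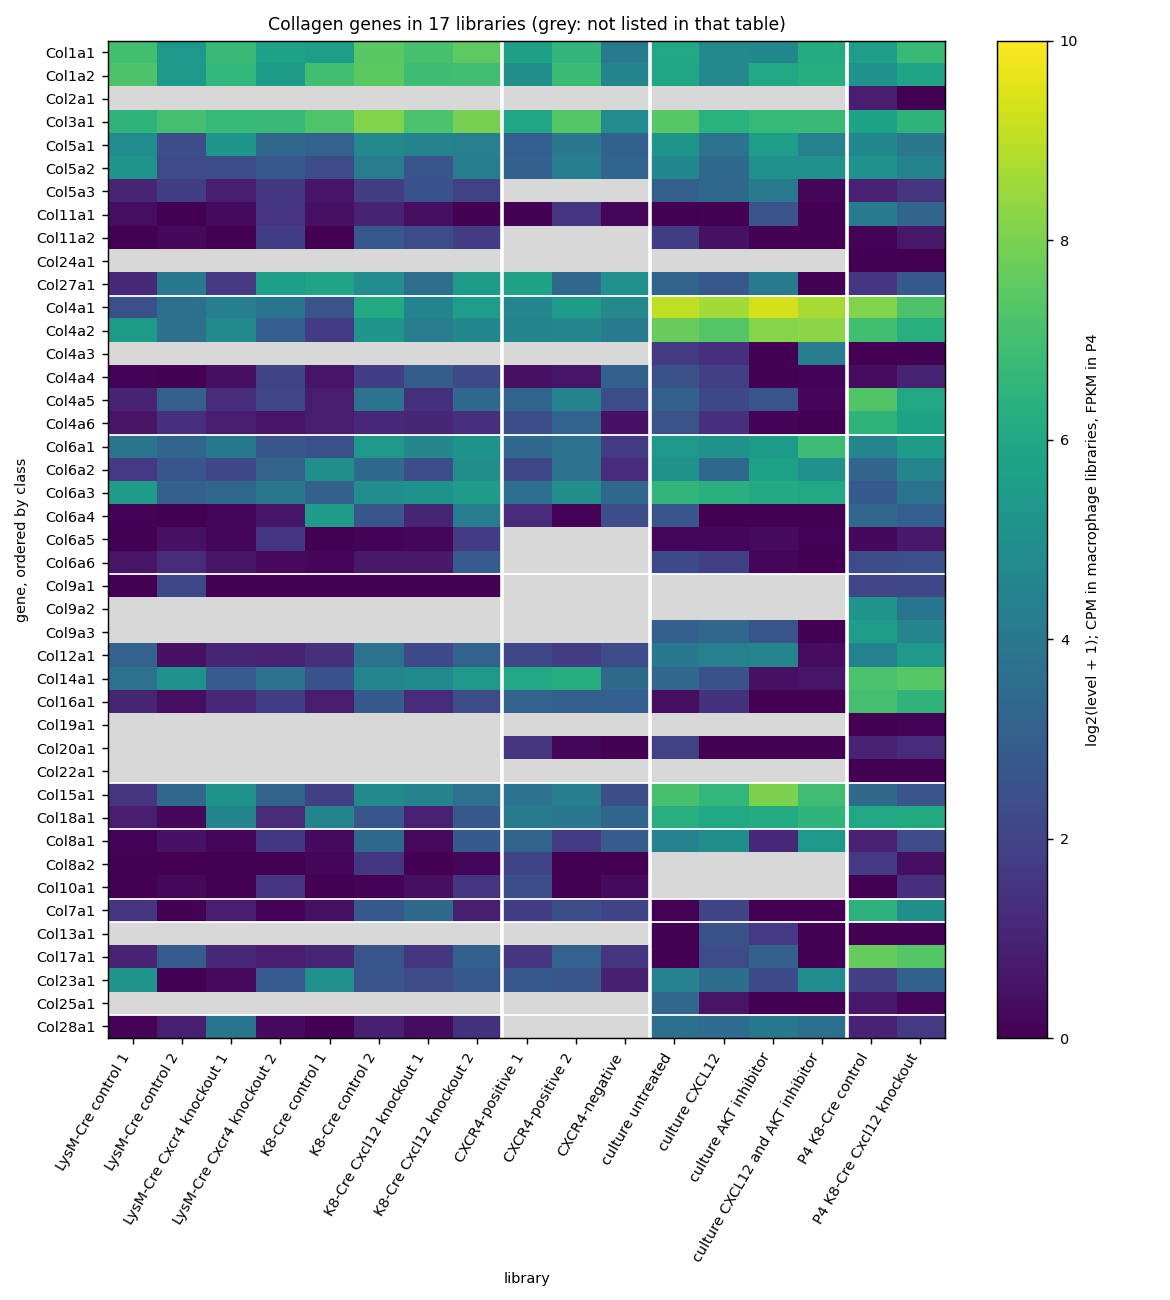
Level of each of the 43 collagen genes (rows, ordered by class) in each of the 17 libraries (columns), as log2(level + 1), in CPM for the 15 macrophage libraries and FPKM for the 2 P4 libraries; grey marks genes not listed in a table. Col1a1, Col1a2 and Col3a1 are bright in all 8 knockout-experiment libraries, Col4a1 and Col4a2 in all 4 cultured libraries, and Col17a1, Col16a1 and Col14a1 in both P4 libraries.

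The make-up of collagen RNA differed between freshly sorted macrophages, cultured macrophages and P4 cells. Levels were divided by transcript length for this comparison, since CPM favours long transcripts. The same GENCODE M21 lengths were used for the culture table, whose own annotation is unknown. The fibrillar class held a median of 71.1% of the summed collagen level per kilobase in the knockout-experiment libraries (68.1 to 74.2%, n = 8), 50.5% in the sort (48.3 to 61.1%, n = 3) and 18.4% in culture (16.1 to 23.9%, n = 4). Type IV held 7.84% (1.42 to 10.5%), 12.8% (12.6 to 21.5%) and 45.4% (43.2 to 48.7%) in the same order. For both classes the cultured libraries did not overlap with any sorted library.

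In P4 cells no class dominated in this way. By FPKM, type IV made up 38.9% of collagen in the control and 25.2% in the Cxcl12 knockout, fibrillar collagens 12.8 and 22.5%, and the fibril-associated class 23.1 and 24.9%. The transmembrane class, nearly all Col17a1, made up 12.2 and 12.6%, against a median of 1.72% per kilobase in the knockout-experiment macrophages. The ratio of Col4a1 to Col1a1 per kilobase gives the same picture with a pair of genes. It was 0.0313 to 0.34 in the knockout-experiment libraries, 0.417 to 1.35 in the sort and 5.4 to 23.6 in culture, and by FPKM it was 5.82 in the P4 control and 1.39 in the P4 knockout.

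**Figure D2:**
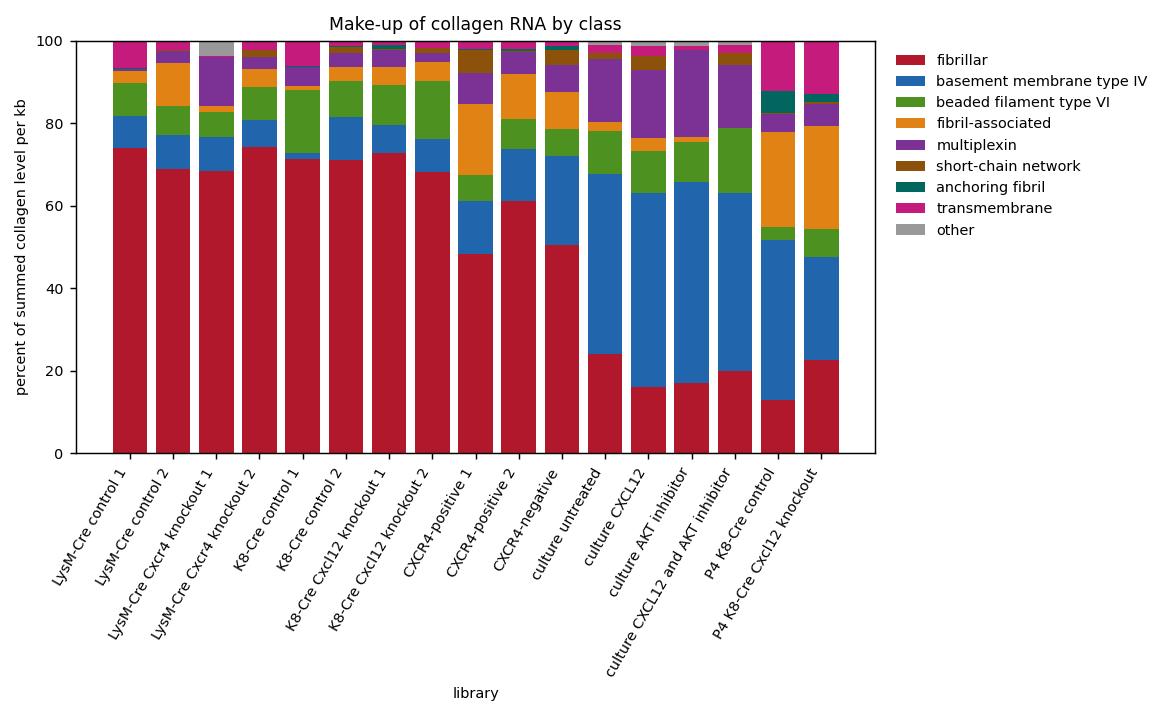
Share of the summed collagen level per kilobase (percent, vertical axis) held by each collagen class in each of the 17 libraries; bars sum to 100. The fibrillar class takes 68.1 to 74.2% in the 8 knockout-experiment libraries and 16.1 to 23.9% in the 4 cultured libraries, where type IV takes 43.2 to 48.7%.

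Fibrillar genes led the collagens in the macrophages of the knockout experiments. Col3a1, the single chain of type III collagen, had the highest median per kilobase (24.4 CPM per kb), followed by Col1a2 (22.6) and Col1a1 (19.7), the 2 chains of type I collagen. The next gene, Col6a1, was at 3.5 CPM per kb. The order of the leading 3 is not firm, because their library ranges in CPM overlap: 89.2 to 271 for Col3a1, 41 to 178 for Col1a2 and 39 to 181 for Col1a1.

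Col1a1 was at 125.5 and 39 CPM in the LysM-Cre controls, 108 and 52 CPM in the Cxcr4 knockouts, 47.7 and 175 CPM in the K8-Cre controls and 133 and 181 CPM in the Cxcl12 knockouts. Col3a1 was at 89.2 and 127.7, 104 and 106.5, 150.1 and 271, and 143.7 and 245 CPM in the same order. Col1a2 was at 145.1 and 41, 96.9 and 42.2, 125.2 and 178, and 119.4 and 122.7 CPM. For all 3 genes the repeats of at least 1 control group lay farther apart than the group means of control and knockout.

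The minor fibrillar chains were lower. Col5a1 and Col5a2, chains of type V that nucleates fibrils, were at medians of 20.6 and 5.45 CPM over the 8 libraries. Col27a1, a fibrillar chain known from cartilage, ranged from 1.2 to 55.7 CPM, with a median of 22.3 CPM. In every knockout-experiment library the fibroblast markers were also present: the 9 markers (Pdgfra, Dcn, Lum, Dpt, Fbln1, Mfap5, Pi16, Pdgfrb, Thy1) summed to 77.5 to 259 CPM, with none at 0. In the same libraries Dcn alone ran from 23.8 to 113 CPM. In bulk RNA, fewer cells of a type and less RNA per cell cannot be told apart, and the part of fibroblast RNA in these levels was not tested.

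The 2 main type IV genes varied widely between repeats. Col4a1 stood at 4.38 and 12 CPM in the LysM-Cre controls, 19.1 and 13.8 in the Cxcr4 knockouts, 4.88 and 66.2 in the K8-Cre controls and 22.1 and 46.4 in the Cxcl12 knockouts. Col4a2 stood at 43 and 11.8, 26.1 and 7.04, 2.21 and 36.4, and 17.3 and 24.3 CPM. For Col4a1 both Cxcr4 knockouts lay above both LysM-Cre controls, and in the other comparisons of these 2 genes the groups overlapped. The K8-Cre control group held both the lowest Col4a2 and the highest Col4a1 of the 8 libraries. The ratio of Col4a1 to Col4a2 per kilobase, a pair with adjoining starts, ran from 0.0993 to 2.16 over these libraries, against 1.04 to 1.78 in the sort and 1.32 to 2.49 in culture.

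Endothelial markers differed in the same direction as Col4a1 and Col4a2 between the repeats of both K8-Cre groups, and not for both genes in the LysM-Cre groups. The 7 markers (Pecam1, Cdh5, Kdr, Emcn, Tie1, Tek, Cldn5) summed to 2.21 CPM in the K8-Cre control repeat 1, with Kdr, Emcn and Cldn5 at 0, and to 196 CPM in repeat 2, with none at 0. The 6 pericyte markers (Rgs5, Cspg4, Mcam, Kcnj8, Abcc9, Notch3) summed to 14.1 and 133 CPM in the same 2 libraries. In the Cxcl12 knockouts the endothelial sum was 97.3 and 181 CPM. Col4a1 was at 22.1 and 46.4 CPM there, and Col4a2 at 17.3 and 24.3 CPM. In the LysM-Cre controls the endothelial sum was 99.2 and 92 CPM while Col4a2 was at 43 and 11.8 CPM, and in the Cxcr4 knockouts it was 44 and 72.7 CPM while Col4a2 was at 26.1 and 7.04 CPM. The part of these markers' cells in the spread of type IV collagen was not tested.

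**Figure D3:**
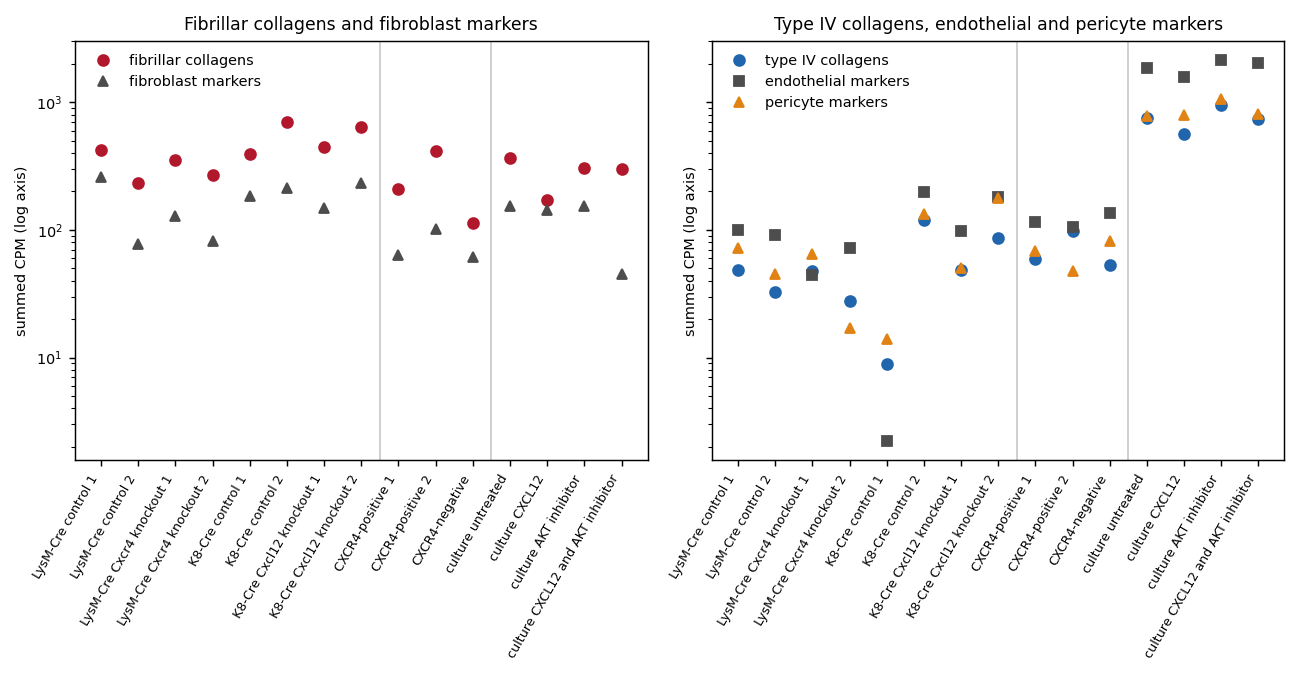
Summed CPM (log axis) in each of the 15 macrophage libraries, of fibrillar collagens beside 9 fibroblast markers (left) and of type IV collagens beside 7 endothelial and 6 pericyte markers (right); grey lines divide the knockout, sort and culture tables, and each point is 1 library. Endothelial markers reach 1576 to 2146 CPM in culture and 2.21 to 196 CPM in the knockout experiments.

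Loss of Cxcr4 in myeloid cells changed no collagen beyond the spread between libraries. Of 30 collagens tested with limma on log2(CPM + 1), 0 passed an adjusted p of 0.05 and 0 had an unadjusted p under 0.05. Over all 17275 genes tested, 1 passed (0.00579%) and 575 had an unadjusted p under 0.05 (3.33%). That 1 gene, named after its values were seen, was Lyz2, the gene that carries the LysM-Cre insertion. The median collagen change was 0.04 on the log2 scale, against 0.14 over all genes, with 15 collagens above 0 and 15 below.

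The repeats of single collagens lay far apart. Col18a1, the multiplexin whose fragment is endostatin, had the highest fitted difference, with 0.707 and 0.149 CPM in the LysM-Cre controls and 21.7 and 1.29 CPM in the Cxcr4 knockouts. Both knockouts lay above both controls, and the difference was 2.36 (SE 1.9, 95% interval -1.4 to 6.12, limma adjusted p = 1). Col15a1, the other multiplexin, was at 1.91 and 9.04 CPM in the controls and 33.7 and 8.33 CPM in the knockouts, so the groups overlapped. Col28a1, a type VI-like collagen, owed its difference of 1.6 to 1 knockout library at 13.6 CPM, with 0.0707 and 0.795 CPM in the controls and 0.214 CPM in the other knockout. The lowest differences were those of Col5a2 (-1.16), Col23a1 (-1.07) and Col14a1 (-1.06). Col14a1 was at 12.2 and 33.1 CPM in the controls and 6.35 and 13.2 CPM in the knockouts, so its groups overlapped.

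Loss of Cxcl12 in luminal cells gave the same count in the macrophages. Of 30 collagens, 0 passed and 0 had an unadjusted p under 0.05 by limma, against 0 (0%) and 491 (2.84%) of the 17275 genes. The median change was 0.52, beside 0.36 over all genes. It was -0.32 without the K8-Cre control repeat 1 and 1.3 without repeat 2, and 0.86 without the Cxcl12 knockout repeat 1 and -0.05 without repeat 2, so its direction rested on single libraries of both groups. With quantile normalization, which brought the median of all genes to 0.02, the collagen median was -0.23.

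Col14a1, a fibril-associated collagen that decorates type I fibrils, had the highest fitted difference, with 4.77 and 22.4 CPM in the K8-Cre controls and 26.8 and 38.9 CPM in the Cxcl12 knockouts. Both knockout libraries lay above both controls, and the difference was 1.52 (SE 1.3, limma adjusted p = 1). Col18a1 had the lowest, at 21.6 and 5.37 CPM in the controls and 0.914 and 5.8 CPM in the knockouts, with groups that overlapped (-1.73, SE 1.9, limma adjusted p = 1). The 5 type IV genes tested had fitted differences above 0, with a median of 0.73. For Col4a1, Col4a2 and Col4a5 this direction rested on the K8-Cre control repeat 1. The K8-Cre control repeat 2 lay above both knockouts for Col4a1 (66.2 against 22.1 and 46.4 CPM), Col4a2 (36.4 against 17.3 and 24.3 CPM) and Col4a5 (13.1 against 1.63 and 9.75 CPM). The groups of Col4a6 overlapped. For Col4a4 both knockouts (6.66 and 3.6 CPM) lay above both controls (0.465 and 2.61 CPM). Its difference stayed above 0 with any 1 library left out (0.72 to 2.02), and was -0.12 with quantile normalization. In the same fit the endothelial markers had a median of 0.97 and the pericyte markers of 1.11. The part of these cells in the type IV values was not tested.

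Whether the knockouts differed from each other was tested as an interaction. Of 30 collagens, 0 passed and 0 had an unadjusted p under 0.05 by limma, beside 1 (0.00579%, again Lyz2) and 428 (2.48%) of all genes. The interaction was highest for Col18a1 (4.1, SE 2.68) and lowest for Col14a1 (-2.58, SE 1.84), both with a limma adjusted p of 1.

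Genes that make or bind collagen gave no call either. Of the 27 tested genes of collagen biosynthesis and crosslinking (chaperones, prolyl and lysyl hydroxylases, procollagen proteases and lysyl oxidases), 0 passed in the Cxcr4 knockout and 0 in the Cxcl12 knockout, with medians of 0.01 and 0.24. Of the 10 collagen receptors, 0 passed in either. Mrc1, the collagen uptake receptor of macrophages, was at 508 to 1412 CPM over the 8 libraries. Serpinh1, the collagen-specific chaperone, was at 1.09 to 28.4 CPM, with the highest values in the Cxcl12 knockout repeat 2 (28.4 CPM) and the K8-Cre control repeat 2 (17.7 CPM).

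Most collagens lay above 0 when CXCR4-positive macrophages were set against the library labelled CXCR4-negative, and the call depended on the filter. Of 28 collagens tested, 23 had differences above 0, with a median of 0.84 on the log2 scale, against a median of -0.16 over all 17130 genes. By limma, over genes that reached 1 CPM in 1 or more of the 3 libraries, 0 of 28 collagens and 0 of 17130 genes (0%) passed. At an unadjusted p under 0.05 there were 2 of 28 collagens and 2684 of all genes (15.7%). When 1 CPM was required in 2 of the 3, 4 of 23 collagens passed, all higher in the positive libraries, beside 1219 of 14411 genes (8.46%), of which 729 were higher (5.06%). That filter removes genes seen only in the single negative library and keeps those seen only in the positive ones. The negative group has 1 library, and the fit assumes that it varies like the positive ones. The p-values of this fit lean on a spread shared across genes, which changed with the filter, and the negative library was not repeated.

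The 4 collagens were Col14a1, Col1a1, Col3a1 and Col1a2. Col14a1 was at 64.1 and 73.5 CPM with CXCR4 and at 9.91 CPM without, a difference of 2.67 (SE 0.25, unadjusted p = 0.00527, limma adjusted p = 0.258). With the stricter filter, where it was called, its difference was again 2.67 and its SE was larger, at 0.49. Its difference was 2.58 for one positive library and 2.77 for the other.

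The type I and III genes spread more between the positive libraries. Col1a1 was at 50.9 and 93.5 CPM against 16.6 CPM (1.99, SE 0.54, and SE 0.47 with the stricter filter). Col3a1 was at 58.9 and 164 CPM against 27.7 CPM (1.79, SE 0.86, and SE 0.42 with the stricter filter). Col1a2 was at 30.9 and 111.6 CPM against 21.6 CPM, a difference of 1.41, with an SE of 0.47 under the stricter filter. For Col3a1 and Col1a2 the positive libraries lay farther apart than the lower of them lay from the negative one. In all 3 genes both positive libraries lay above the negative one.

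Other classes were mixed in the sort. Col4a1 was at 23.7 and 43.7 CPM with CXCR4 and at 25 CPM without, so the negative library lay between the positive ones. Col4a6, a chain of the epithelial type IV network, was at 4.34 and 7.98 against 0.388 CPM (2.32, SE 0.69, limma adjusted p = 0.335). The lowest difference was that of Col4a4, a minor type IV chain, at 0.347 and 0.478 CPM against 7.54 CPM (-2.6, SE 0.45, unadjusted p = 0.0202, limma adjusted p = 0.258). Col6a4 (1.29 and 0.0735 against 4.14 CPM) and Col27a1 (53.1 and 9.08 against 31.2 CPM) were the next lowest, and for Col27a1 the negative library lay between the positive ones.

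Markers differed across the sort as well. The 8 listed fibroblast markers summed to 63.3 and 102 CPM with CXCR4 and to 61.1 CPM without, none of them at 0, and 5 had differences above 0 and 3 below. Among those above 0, Dcn was at 36.1 and 48.6 CPM with CXCR4 and 18.4 CPM without, and Lum at 6.74 and 12 against 1.94 CPM. Pi16, a marker of adventitial fibroblasts, went the other way, at 0.382 and 0.404 against 5.82 CPM (a difference of -2.29). Of the 8 macrophage markers, 7 had differences above 0 and 1 below, with a median of 1.55. C1qa was at 405 and 404.8 against 9.74 CPM, and the 1 below was Ptprc, at 920 and 798 against 2040 CPM. The part of these differences in the collagen values was not tested. Of 24 genes of collagen biosynthesis, 0 passed, with 18 above 0 and a median of 0.33, and of 9 collagen receptors, 0 passed. Mrc1 was the highest of them, with a difference of 4.17 (limma unadjusted p = 0.00117).

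**Figure D4:**
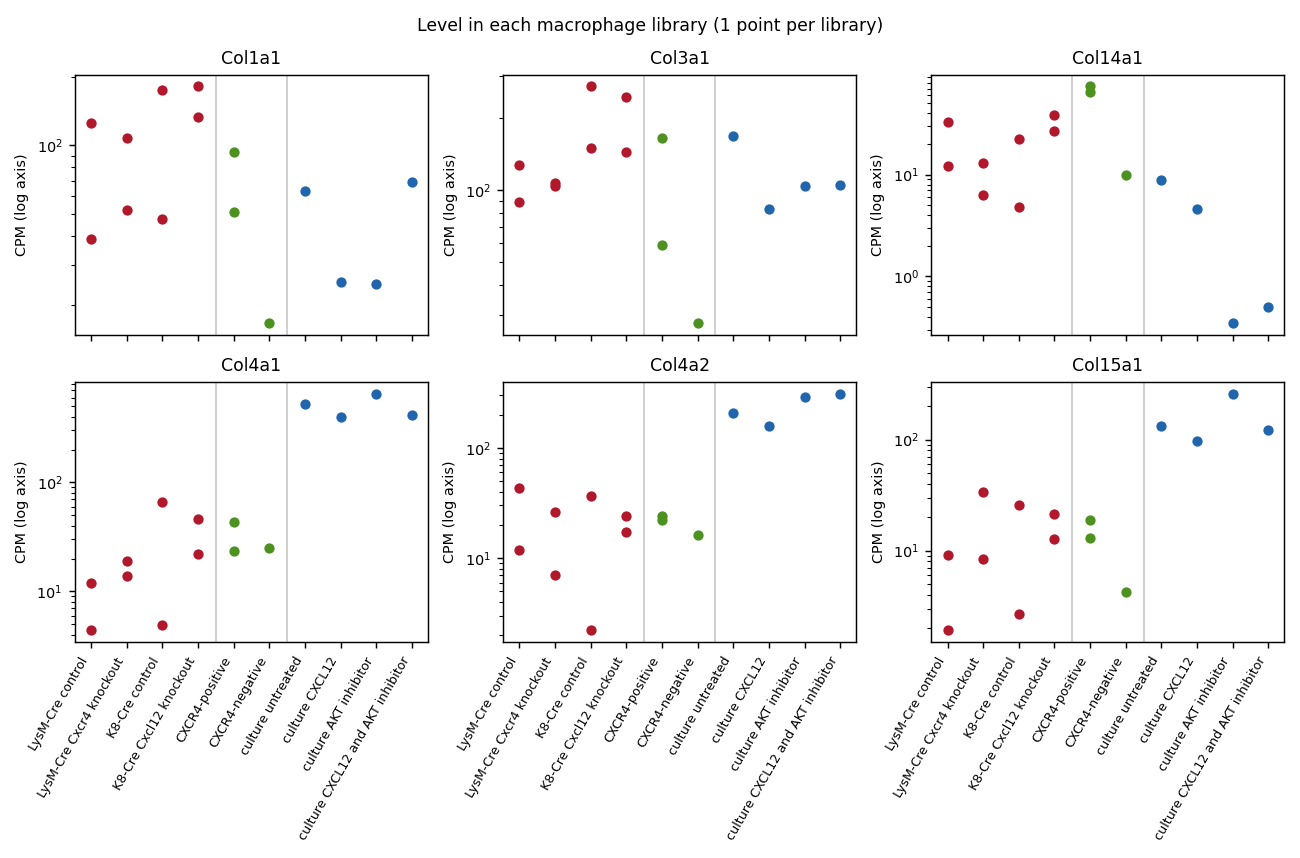
CPM (log axis, scaled for each gene) of 6 collagen genes in each of the 15 macrophage libraries, 1 point per library, with the knockout experiments in red, the CXCR4 sort in green and culture in blue. Col14a1 is at 64.1 and 73.5 CPM in the CXCR4-positive libraries, and Col4a1, Col4a2 and Col15a1 are higher in all 4 cultured libraries than in all 11 sorted ones.

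The main type IV pair and both multiplexins were higher in cultured than in sorted macrophages. Among 25 collagens listed in all 3 macrophage tables, 5 had every cultured library above all 11 sorted libraries and 0 had every one below. Over 14254 genes the same was true of 7.04% above and 3.94% below. The 5 were Col4a1, Col4a2, Col15a1, Col18a1 and Col6a3. They include 2 of the 5 type IV genes compared: Col4a4, Col4a5 and Col4a6 overlapped with the sorted libraries, Col4a5 at 0.125 to 7.38 CPM in culture and 0.698 to 21.3 CPM when sorted. Culture coincides with a separately normalized table of unknown annotation, so these cannot be told apart.

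Col4a1 was at 524.5 CPM untreated, 395.6 with CXCL12, 649.7 with the AKT inhibitor and 417.6 with both, against 4.38 to 66.2 CPM in the 11 sorted libraries. Col4a2 was at 205, 159, 288 and 309 CPM, against 2.21 to 43 CPM. Col15a1 was at 134, 96.9, 259 and 123 CPM, against 1.91 to 33.7 CPM. Each of these genes was highest in a library with the AKT inhibitor and lowest with CXCL12 alone.

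Col18a1 was at 76.5, 63, 69.7 and 91.2 CPM in culture and 0.149 to 21.7 CPM in sorted macrophages. Col6a3, the long chain of type VI, was at 93.9, 80.8, 67.6 and 63 CPM in culture and 7.35 to 45.2 CPM when sorted. The fibrillar class did not share this: of its 7 genes compared, 0 lay above and 0 below all sorted libraries. Col1a1 was at 63.2, 25.2, 24.6 and 69.3 CPM and Col3a1 at 167.8, 82.9, 104 and 105.3 CPM in culture, inside their sorted ranges of 16.6 to 181 and 27.7 to 271 CPM.

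Some genes of collagen biosynthesis, and markers of vessel cells, were also above all sorted libraries. Of 22 genes of collagen biosynthesis, 4 lay above and 1 below, beside 7.04% and 3.94% of all genes, and 17 overlapped, among them the lysyl oxidases Loxl1 and Loxl3. The 4 were Serpinh1 (80.7 to 121 CPM in culture, 1.09 to 28.4 when sorted), Sparc (501 to 717 against 19.8 to 202), a collagen-binding matrix protein, and the lysyl oxidases Lox and Loxl2. The 1 below was Ppib, a prolyl isomerase. All 7 endothelial markers and 3 of 6 pericyte markers lay above all sorted libraries. The endothelial markers summed to 1576 to 2146 CPM, more than the 1164 to 1260 CPM of the macrophage markers in the same libraries, and the pericyte markers to 781 to 1054 CPM. Cdh5, the cadherin of endothelial junctions, was at 678 to 869 CPM in culture. None of the endothelial markers was at 0 in any cultured library. The fibroblast markers summed to 45 to 155 CPM, within or below their sorted range. The part of endothelial and pericyte RNA in the levels of type IV, XV and XVIII collagen was not tested.

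With the AKT inhibitor, 4 collagens of low level were lower in both of its comparisons. There are no replicates here, so a gene was counted when its log2 ratio of CPM + 1 was past 2-fold the same way without and with CXCL12. Of 34 collagens compared, 4 were lower and 0 higher, beside 8.7% lower and 3.63% higher (12.3% together) of all 17995 genes, so the share of collagens was near the background. The 4 were Col14a1 (8.89 to 0.349 CPM without and 4.61 to 0.499 CPM with CXCL12), Col4a4, Col4a6 and Col6a6, and none of them was above 10 CPM in any cultured library. With quantile normalization the count was 1, and with a pseudocount of 0.25 it was 7. Another 6 collagens, Col1a1 among them, were past 2-fold in opposite directions in the 2 comparisons, beside 10.6% of all genes. Col4a1 had ratios of 0.31 and 0.08 and Col4a2 of 0.49 and 0.96. Itga11, a fibrillar collagen receptor, was the only collagen receptor past 2-fold in both pairs (2.54 and 2.91). It was at 0.0473 CPM untreated, the value of 1 read, 1.58 with CXCL12, 5.1 with the inhibitor and 18.5 with both. Itga11 was also past 2-fold higher in both CXCL12 pairs (1.3 and 1.67).

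Recombinant CXCL12 gave 1 collagen past 2-fold in both pairs. This was Col5a1, at 34.9 CPM untreated and 12.9 with CXCL12, and at 46.6 with the inhibitor and 19.8 with both (log2 ratios of -1.37 and -1.2). That is 1 of 34 collagens lower and 0 higher, beside 5.83% lower and 3.01% higher (8.84% together) of all genes. Opposite directions were seen in 3 of 34 collagens (Col1a1, Col13a1 and Col17a1), beside 9.19% of all genes. Without the inhibitor, the 9 fibrillar genes had a median ratio of -1.2 and all collagens of -0.43, against 0 over all genes. With the inhibitor both medians were 0, against -0.07 over all genes. Col1a1, Col1a2 and Col3a1 had ratios of -1.29, -1.2 and -1.01 without the inhibitor, and of 1.46, 0.27 and 0.02 with it. The untreated and CXCL12 libraries also serve the AKT comparison, so the 2 sets of ratios share libraries.

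The highest collagens of P4 basal cells included those of the epithelial basement membrane zone and the fibril-associated Col14a1 and Col16a1. In the K8-Cre control the highest were Col4a1 (271 FPKM), Col17a1 (197.8), Col4a5 (153), Col14a1 (143), Col16a1 (131), Col4a2 (125), Col4a6 (89) and Col7a1 (85.5). FPKM is already per length, so these levels can be ranked, but each is 1 library. Basal markers were high in both libraries, with Krt5 at 436 and 456 FPKM and Krt14 at 561 and 471 FPKM. Serpinh1 was at 141 and 147 FPKM and Sparc at 923 and 1011 FPKM.

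Several of these genes were scarce in macrophages. Col17a1 did not pass 7.87 CPM in any macrophage library. Col7a1, the anchoring fibril chain, did not pass 10.1 CPM, and Col16a1, a fibril-associated collagen, did not pass 7.88 CPM. Col9a2 and Col9a3 (46 and 22.3 FPKM) were also part of the P4 set, and of these Col9a3 was listed in macrophages only in culture, at 7.42, 8.75, 5.1 and 0 CPM. Fibroblast collagens were present too: Col1a1 was at 46.6 FPKM and Col3a1 at 54.1 FPKM in the P4 control, with all 9 fibroblast markers at 1 FPKM or more. Among these markers, Dcn was at 145 FPKM in the control and 203 FPKM in the knockout.

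Between the 2 P4 libraries, the abundant type IV genes and Col7a1 had lower values in the Cxcl12 knockout, and Col1a1, Col1a2, Col3a1 and Col6a1 to Col6a3 higher ones, most of them by less than 2-fold. There is no replicate, so no test is possible. Of 33 collagens compared as log2 ratios of FPKM + 1, 7 were past 2-fold higher and 5 lower, beside 13.5% higher and 9.68% lower of 13146 genes, and the collagen median was 0.08 against 0.03. The 4 type IV genes compared were all lower: Col4a1 went from 271 to 149 FPKM, Col4a2 from 125 to 78.7, Col4a5 from 153 to 60.9 and Col4a6 from 89 to 53.9, with a median log2 ratio of -0.79. Only Col4a5 among them was past 2-fold (-1.31).

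Some collagens of other classes were also lower, or level, in the knockout. Col7a1 went from 85.5 to 29.4 FPKM (-1.51), Col16a1 from 131 to 88.5 FPKM (-0.56) and Col17a1 from 197.8 to 165 FPKM (-0.26). The type IX genes Col9a2 (35.3 to 13.8 FPKM) and Col9a3 (46 to 22.3 FPKM) were past 2-fold lower, as was the low Col8a2, a short-chain network collagen (2.15 to 0.326 FPKM). Col18a1 was nearly level, at 63.2 and 66.8 FPKM.

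The type I and III genes and 3 type VI genes had higher values in the knockout, and of these only Col1a1 and Col6a2 were past 2-fold. Col1a1 went from 46.6 to 107 FPKM (1.18), Col1a2 from 33 to 56.7 FPKM (0.76) and Col3a1 from 54.1 to 89.5 FPKM (0.72). Col6a1, Col6a2 and Col6a3, the 3 chains of the main type VI trimer, had log2 ratios of 0.93, 1.33 and 0.98. Of the other type VI genes compared, Col6a4 had a ratio of -0.3 and Col6a6 of 0.17. The type V chains Col5a1 and Col5a2 went the other way (-0.68 and -0.53). Also past 2-fold higher were Col12a1, a fibril-associated collagen (19.8 to 41.2 FPKM), and 4 genes under 10 FPKM, Col8a1, Col10a1, Col23a1 and Col27a1. Col14a1, the highest of the fibril-associated genes, was at 143 and 169 FPKM.

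The summed fibroblast, pericyte and luminal markers were all higher in the knockout library. The fibroblast markers summed to 201 FPKM in the control and 294 FPKM in the knockout, with 3 of 9 past 2-fold higher (Lum, Mfap5 and Pi16), 2 below 0 (Fbln1 and Pdgfrb) and a median log2 ratio of 0.6. The pericyte markers summed to 61.7 and 106 FPKM, with 3 of 6 past 2-fold higher and 2 below 0 (Cspg4 and Kcnj8). The 6 luminal markers (Krt8, Krt18, Krt19, Epcam, Elf5, Kit) summed to 341 and 458 FPKM, with 1 past 2-fold higher (Krt19), 2 below 0 and a median of 0.8. Of the 8 basal markers, 0 were past 2-fold either way, with a median of 0.17. Of 21 genes of collagen biosynthesis, 3 were past 2-fold higher, Lox, Loxl1 and Pcolce, and 0 lower. Over all 13146 genes 13.5% were past 2-fold higher and 9.68% lower, so the count of biosynthesis genes higher was near the background. The part of stromal or luminal RNA in the type I, III and VI values was not tested.

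**Figure D5:**
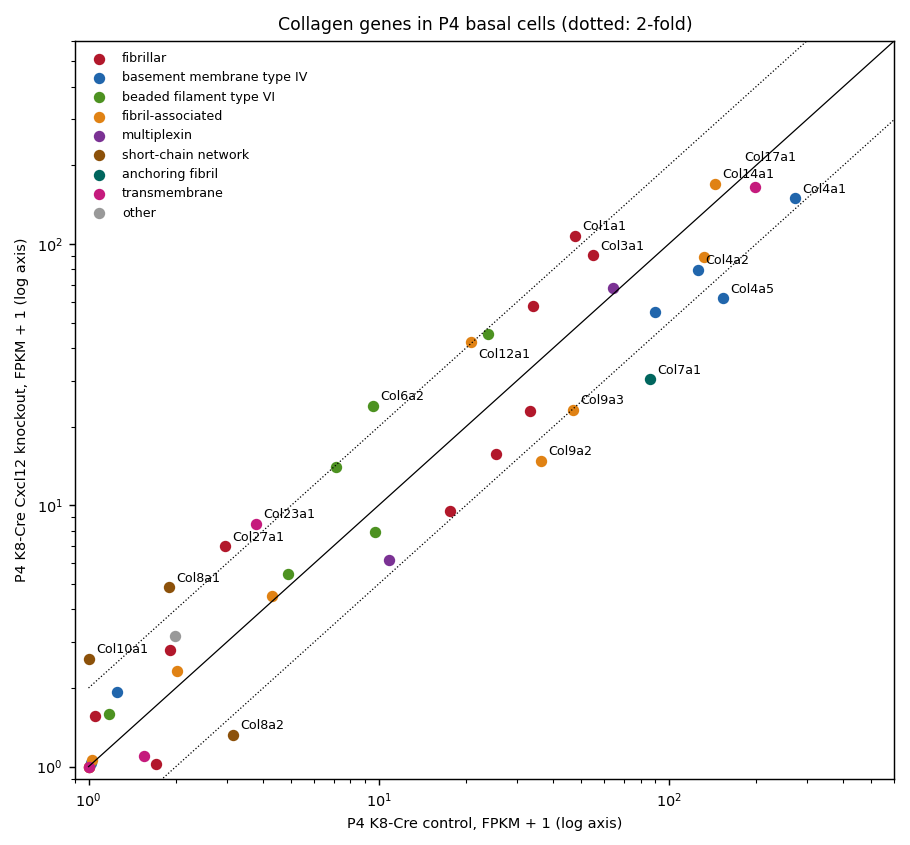
FPKM + 1 of each of the 43 collagens in the P4 K8-Cre control (horizontal, log axis) and the P4 K8-Cre Cxcl12 knockout (vertical, log axis), coloured by class, with 1 library per axis; the solid line marks equality and the dotted lines 2-fold. The type IV genes above 50 FPKM and Col7a1 lie below the solid line, and Col1a1, Col3a1, Col6a2 and Col12a1 lie above it.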

How the data were processed

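RNA was sequenced after removal of ribosomal RNA, per the labels' protocols. STAR 2.7.8a, Partek and the build hg38 are named in the submitters' processing notes, and the coordinates of the sorted macrophage tables are those of the mouse GRCm38 annotation. The authors deposited macrophage values as log2(CPM + 0.0001), which were turned back to CPM, and P4 values as FPKM. Of low values, 74.4 to 90.2% fell within 0.05 of a whole number of reads. Knockout and sort tables were fitted with limma 3.58.1 (R 4.3.3, mean-variance trend) on log2(CPM + 1), with Benjamini-Hochberg adjustment over all genes tested. Genes needed 1 CPM in 2 libraries (knockout) or 1 library (sort). The code of the fit was checked on simulated data with less spread than Col18a1 and Col14a1 show here. That check does not show what the fit could detect in these libraries. Culture and P4 gave ratios of values + 1. Levels per kilobase used the longest protein-coding transcript of GENCODE M21. Genes were named by level (8 highest in macrophages, 10 in the P4 control, 3 in sort and culture), by being called, and as the 3 highest and 3 lowest changes in a comparison; others are members of a class or list described beside them. The collagens, their classes and the companion and marker lists were chosen with earlier results of these data known. Other pseudocounts, filters, normalizations and left-out libraries were tried.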

Additional observations from a re-analysis of the deposited data

Results flagged for a closer look

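In 6 collagens the AKT inhibitor was past 2-fold in opposite directions without and with CXCL12, and this difference was not tested because each culture condition is 1 library. Such opposite ratios were found in 10.6% of all 17995 genes. The log2 ratio with CXCL12 minus that without was 2.75 for Col1a1 (-1.32 without, 1.42 with), 3.49 for Col23a1 (-2.17 and 1.32) and 4.58 for Col4a3 (-1.71 and 2.87). It was -4.15 for Col13a1 (1.66 and -2.49), -5.37 for Col17a1 (3.08 and -2.29) and -4.26 for Col5a3 (1.06 and -3.2). Col1a1 was the highest of the 6, at 63.2 CPM untreated, 25.2 with CXCL12, 24.6 with the inhibitor and 69.3 with both, and Col23a1 was next, at 20.5, 10.5, 3.77 and 27.8 CPM.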

How the results depend on the processing

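No collagen was called in either knockout or in their difference under any alternative run (pseudocount, filter, quantile normalization, no trend, replicate block, each library left out). The cause of the changes below was not tested. Leaving out 1 library moved the median collagen change to between -0.10 and 0.40 (Cxcr4 knockout) and between -0.32 and 1.3 (Cxcl12 knockout), and the median sort difference to between 0.75 and 1.42. Quantile normalization gave -0.23 for the Cxcl12 knockout median and -0.12 for Col4a4 there. A pseudocount of 0.25 gave a median sort difference of 1.08. In the sort, 4 collagens and 1219 genes were called with 1 CPM in 2 libraries, against 0. Past 2-fold in both culture pairs, the inhibitor count was 7 (pseudocount 0.25) or 1 (quantile), and the CXCL12 count 2 (pseudocount 0.25). Col23a1 (-3.65 to 1.51) and Col5a2 (-2.59 to 0.27) in the Cxcr4 knockout, Col6a4 in the Cxcl12 knockout (-3.06 to 0.12) and Col27a1 in the sort (-1.67 to 0.75) changed sign with 1 library left out. Genes called ran from 0 to 150 (Cxcr4 knockout), 0 to 151 (Cxcl12 knockout) and 0 to 30 (difference). With lengths of merged exons, added after seeing the data, the fibrillar share was 63.6% (knockout), 42.3% (sort) and 14.1% (culture), and the type IV share in culture 50.3%, or 49.2% without a length correction. With the replicate number as a block, 0 collagens were called in each knockout comparison, and genes called were 1, 1 and 1; deviations of same-numbered libraries correlated at 0.0573 to 0.139 over genes, so the numbers were not taken to pair the samples. Groups of 1 or 2 libraries limit every comparison, and no depth can be given for P4 cells.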
